A study of Mus musculus with 90 samples.

Results

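Regulatory T cells (Tregs) sorted from mouse tumours as Ebi3 cells were compared with Tregs sorted from tumours as double-negative (DN) cells. The comparison used 3 tumour Ebi3 libraries and 3 tumour DN libraries, 1 of each from each of 3 batches, which made 6 of the 90 libraries of the series. Members were taken by their labels: population Ebi3 or double negative, cell type Treg and source tumour, with the batch number as a block. Mice of both groups were labelled WT, and the labels gave no allele, agent, age, tumour type or number of animals. The series design states that tumour Tregs were sorted by their expression of IL10 and IL35, so the groups are sort gates on such cells. Each fraction went through 2 rounds of sorting and was lysed directly for cDNA synthesis with a SMART-Seq v4 kit. The other Treg populations used beside them were tumour IL10 Tregs and the Ebi3, IL10 and DN Tregs of non-draining lymph nodes and of the source labelled NaiveTcell (the naive source), each with 3 libraries from the same batches and the same WT label. The fit also held 3 libraries of naive effector T cells (Teff) from the same batches, which were not compared with any group here. Whether the libraries of a group stem from different mice is not stated, and the p-values therefore cover only the variation among these samples, which may be technical.

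Tregs are CD4 T cells that express the transcription factor Foxp3 and restrain other immune cells. IL-35 is a suppressive cytokine made of the Ebi3 and IL-12 p35 (Il12a) chains, and IL-10 is a second suppressive cytokine of Tregs. Resting Tregs circulate through lymph nodes with Klf2 and S1pr1, genes of lymphocyte egress. Effector Tregs in tissues and tumours have little of these and high costimulatory and inhibitory receptors.

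The promoters of the sort gene and of 2 genes that differed between the groups are shown, each as the 250 bases before the RefSeq start, plus strand, GRCm38.p6. Capitals mark the letters CCCACCC, a form of the CACCC box that Krüppel-like factors bind, because Klf2 and Klf3 were among the genes that fell. Ebi3 (chr17:55952373-55952622) is the gene of the sort, Il6st (chr13:112463820-112464069) encodes the receptor chain gp130 and was lower in Ebi3 cells, and Rbbp7 (chrX:162760122-162760371) encodes a histone-binding protein and was higher.
Ebi3: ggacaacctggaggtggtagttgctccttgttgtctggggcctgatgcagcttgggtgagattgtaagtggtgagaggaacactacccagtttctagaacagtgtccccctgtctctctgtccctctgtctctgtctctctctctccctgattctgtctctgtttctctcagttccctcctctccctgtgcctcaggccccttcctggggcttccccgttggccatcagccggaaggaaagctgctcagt
Il6st: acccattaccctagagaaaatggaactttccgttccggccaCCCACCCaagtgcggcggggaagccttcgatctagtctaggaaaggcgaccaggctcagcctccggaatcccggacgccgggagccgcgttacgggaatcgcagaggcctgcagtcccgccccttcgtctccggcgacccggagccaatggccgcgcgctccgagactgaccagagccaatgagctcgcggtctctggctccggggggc
Rbbp7: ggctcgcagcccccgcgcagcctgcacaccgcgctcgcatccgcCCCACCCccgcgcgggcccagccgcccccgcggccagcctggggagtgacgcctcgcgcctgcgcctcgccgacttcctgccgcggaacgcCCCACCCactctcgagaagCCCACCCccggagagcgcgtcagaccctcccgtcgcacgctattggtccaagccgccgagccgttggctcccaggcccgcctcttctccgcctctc
The box was searched on both strands (GGGTGGG on the other strand) and was found in 15.8% of 32851 mouse promoter windows of this length. The Ebi3 window held 0 matches. The Il6st window held 1, which began 209 bases before the start. The Rbbp7 window held 3, which began 206, 115 and 96 bases before the start. Counted by gene, 32 of 75 called genes with a promoter in the table (42.7%) held the box, and 2228 of 10341 tested genes (21.5%). The STAT element TTCNNNGAA, which reads the same on both strands, was searched too and was held by 5 of the 75 (6.67%), 748 of the 10341 (7.23%) and 7.02% of all windows. The motifs and the windows shown were chosen with the calls known, no test was made, and a match describes letters only.

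The gene of the sort was measured first. Ebi3 (chr17:55952623-55957022) reached 6.06, 15.7 and 7.97 CPM (reads of the gene in 1000000 counts of the library) in the Ebi3 libraries of batches 1, 2 and 3, and 0.785, 0.445 and 0.533 CPM in the DN libraries. Behind these levels were 112, 204 and 158 counts against 14, 6 and 10. All 3 Ebi3 libraries lay above all 3 DN libraries, in the direction of the labels. The fitted log2 fold change was 3.87 with a standard error (SE) of 1.38, and it did not pass the threshold (adjusted p = 0.288, edgeR quasi-likelihood test with Benjamini-Hochberg adjustment at 0.05). Fitted on the 6 libraries alone, the same gene had an adjusted p of 0.0165 and a log2 fold change of 3.93.

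Il12a, which encodes the partner chain of Ebi3 in IL-35, had 16 counts (0.866 CPM) in the Ebi3 library of batch 1 and 0 in the other 5 libraries, and too few counts to be tested. Il10 was low in both gates, at 1.90, 0.924 and 1.21 CPM in Ebi3 and 3.37, 2.08 and 1.39 CPM in DN libraries (log2 fold change -0.75, SE 0.57, adjusted p = 0.75). In the tumour IL10 libraries it stood at 115, 155 and 123 CPM. Foxp3 was present at 49.6, 98.1 and 42.5 CPM in Ebi3 and 68.1, 114 and 52.9 CPM in DN libraries, with overlapping ranges (-0.35, SE 0.25, adjusted p = 0.731). Among the other receptor and chain genes of this list, Il27ra had a log2 fold change of 0.00 (SE 0.14), Il12rb1 of 0.43 (SE 0.57) and Il12rb2 of 0.33 (SE 1.10), none past the threshold.

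The 6 libraries held between 12990000 and 19810000 counts, so 3 counts corresponded to 0.151 to 0.231 CPM. The CD4 Treg markers Cd4, Foxp3, Il2ra, Ikzf2 and Ctla4 summed to 3235 to 3728 CPM in Ebi3 and 3430 to 3814 CPM in DN libraries. Some markers of other cells were absent and others were not. Of 9 B cell, 15 myeloid and 8 natural killer (NK) cell genes, 5, 2 and 4 were at 0 in all 6. Among them were Ms4a1, Pax5, Ebf1 and Fcer2a of B cells, Itgax and Emr1 of myeloid cells and Ncr1, Klra8, Klra4 and Klra9 of NK cells. The 9 B cell genes found summed to 28.9 to 51.3 CPM in Ebi3 and 18.1 to 39.0 CPM in DN libraries, most of it Cd79b. The 15 myeloid genes summed to 604 to 975 and 610 to 837 CPM, most of it Cd74, at 545 to 882 and 541 to 726 CPM. H2-Ab1 of that list was at 37.4 to 69.2 and 50.1 to 75.7 CPM, and H2-Aa at 9.54 to 15.8 and 11.4 to 23.4 CPM. The 10 stromal and endothelial genes summed to 51.8 to 75.9 and 65.3 to 117 CPM, most of it Pecam1, at 51.1 to 74.6 and 64.1 to 114 CPM. The 8 pigment cell genes summed to 8.62 to 18.1 and 7.72 to 19.0 CPM. The 8 erythroid and platelet genes summed to at most 0.462 CPM in Ebi3 and 2.08 CPM in DN libraries. Of 6 gamma-delta T cell genes listed, only Sox13 and Blk were found, and the receptor genes were not. Sox13 was at 0 in all 6 libraries. Blk, also counted among the B cell genes, reached at most 1.06 and 3.49 CPM, so gamma-delta T cells could not be judged.

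Cd8a was at 0, 0 and 0.101 CPM in Ebi3 and at 2.02, 11.6 and 2.51 CPM in DN libraries, without overlap and without passing the test (adjusted p = 0.404), while Cd8b1 ranged from 16.1 to 34.1 CPM in Ebi3 and 20.8 to 26.3 CPM in DN libraries. The 8 NK genes summed to 0.539 to 2.65 CPM in Ebi3 libraries and to 1.18, 0.816 and 14.7 CPM in DN libraries, the last mostly Tyrobp at 9.54 and Fcer1g at 5.17 CPM in the DN library of batch 3. The part of these cells in the results was not tested.

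Of 12907 genes tested, 92 (0.713%) passed the threshold: 11 (0.0852%) rose and 81 (0.628%) fell in tumour Ebi3 Tregs. With the same block, 165 rose and 160 fell when only the 6 libraries were fitted, and 137 rose and 130 fell with the 9 tumour libraries. At an unadjusted p under 0.05, 1241 genes (9.61%) passed, 503 of them higher and 738 lower. The CPM ranges of the 2 groups did not overlap for 1521 genes (11.8%), and for 74 of the 92. The direction was the same in all 3 batches for 91 of the 92. The 92 were selected on these same values, so both counts are no separate support for the calls. Of all genes tested, 6401 had a positive and 6506 a negative log2 fold change, 2327 were higher and 2159 lower in Ebi3 in all 3 batches. The genes that fell included those of egress and of resting T cells, and the genes that rose included enzymes of serine and guanine nucleotide synthesis. In bulk libraries a gene can be lower because fewer of the cells express it or because each cell holds less of its RNA, and these cannot be told apart. Exons of 20 of the 56 named genes overlap those of another annotated gene. These are Ebi3, Foxp3, Rbbp7, Impdh2, Cd7, Il6ra, Tox, Evl, Degs2, Pde2a, Cd27, Cd81, Dgka, Malat1, Rnaseh2a, Tmc3, Ucp2, Tnfrsf26, Zfp36 and P2rx7. With no strand setting given, the reads of each pair cannot be told apart. A strand setting would not separate pairs on the same strand, as for Pde2a.

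**Figure D1:**
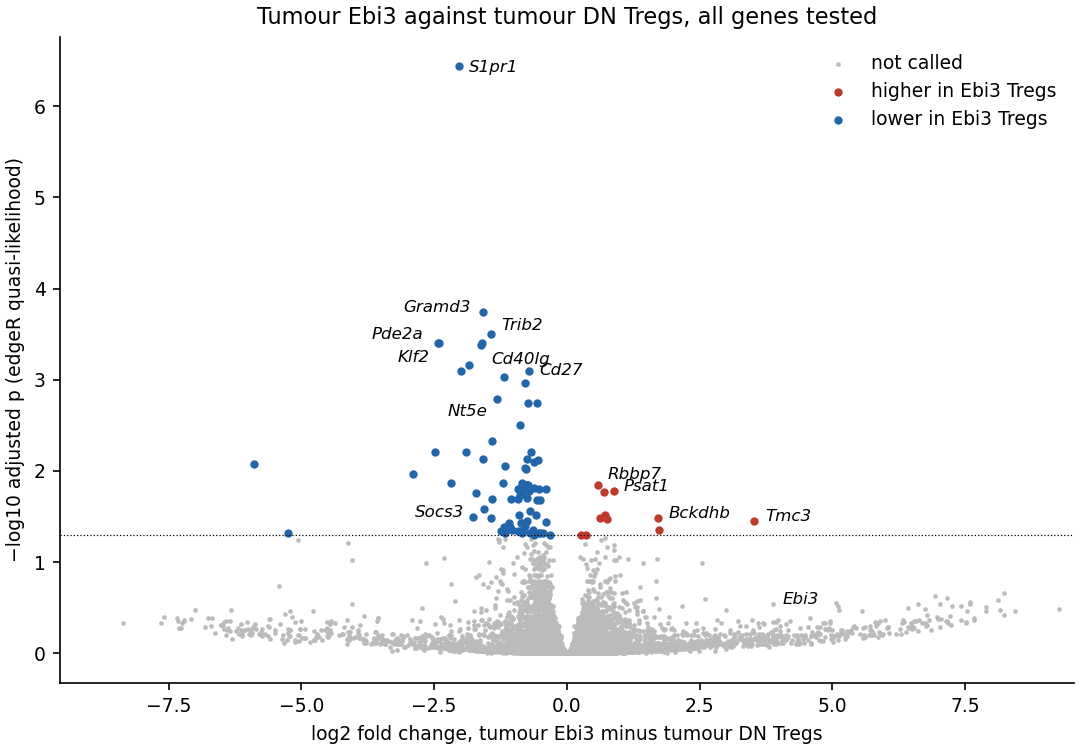
Each point is 1 of the 12907 genes tested, with the log2 fold change of tumour Ebi3 minus tumour DN Tregs on the x axis and the negative log10 of the adjusted p on the y axis. Red marks the 11 genes that rose and blue the 81 that fell; S1pr1 stands highest and the dotted line is the threshold of 0.05.

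The genes S1pr1, Gramd3, Trib2 and Cd40lg, 4 in all, passed under every one of 16 alternative analyses (3 without a batch, 6 without a library and 7 of another kind). Evl, Fam65b, Cd27, Pde2a and Klf2 passed in 15. Of the 92, 5 passed in all 3 fits without a batch, 15 in all 6 without a library and 12 in all 7 others. The other calls named below were lost in at least 2 of the 16.

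S1pr1 (chr3:115710433-115715055) encodes the sphingosine-1-phosphate receptor that lets lymphocytes leave tissue. It was at 40.7, 54.3 and 36.8 CPM in Ebi3 libraries of batches 1 to 3 and at 181, 208 and 145 CPM in DN libraries. Every Ebi3 library was below every DN library by a wide gap. The gene fell by 2.04 on the log2 scale (SE 0.18, adjusted p = 3.65e-07), the smallest p of the comparison, and its highest adjusted p over the 16 alternatives was 0.000502.

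Klf2 (chr8:72319062-72321654) encodes the transcription factor that drives S1pr1 in resting T cells. It was at 8.39, 2.69 and 2.62 CPM in Ebi3 and 45.5, 15.1 and 12.7 CPM in DN libraries. Batch 1 was high in both gates, and within every batch the Ebi3 library was the lower one. Klf2 fell by 2.40 (SE 0.34, adjusted p = 0.000395); without the batch block its adjusted p was 0.11.

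Klf3, a related repressor, was at 6.12, 2.62 and 1.72 CPM in Ebi3 and 21.8, 10.24 and 6.72 CPM in DN libraries, again highest in batch 1 in both gates. It fell by 1.91 (SE 0.35, adjusted p = 0.00617), and the call held in 0 of 3 fits without a batch and 3 of 6 without a library. Without the DN library of batch 1 Klf3 did not pass.

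Of 17 genes listed for Klf2, sphingosine-1-phosphate and egress, 14 were tested: 4 fell, S1pr1, Klf2 and Klf3 among them, and 0 rose. The median log2 fold change was -0.52, beside -0.00349 over all genes, and 81 of all 12907 genes fell. Cd69, which opposes S1pr1 at the cell surface, had a log2 fold change of -0.53 (SE 0.17, adjusted p = 0.2), Itgb7 of 0.07 (SE 0.13) and Il7r, the IL-7 receptor, of -0.57 (SE 0.37), with overlapping ranges. Without the DN library of batch 1 the median of the list was -0.27 and 2 genes passed.

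Of 18 resting and stem-like genes tested, 5 fell (Tcf7, Ly6c1, Cd27, Il6ra and Rasgrp2) and 0 rose, beside 81 and 11 of all 12907 genes. All 18 had a negative log2 fold change and 15 were lower in all 3 batches, beside 6506 and 2159 of all 12907 genes. Their median was -0.68. Over the 9 leave-outs the number that fell ranged from 0 without batch 3 to 5 without the DN library of batch 2, with medians between -0.82 and -0.51.

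Cd27, a costimulatory receptor of the TNF receptor family, was at 213, 184 and 202 CPM in Ebi3 and 315, 319 and 342 CPM in DN libraries. Both groups were tight and far apart. Cd27 fell by 0.72 (SE 0.11, adjusted p = 0.000807), and its adjusted p without batch 3 was 0.199.

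Tcf7, the TCF-1 factor of stem-like T cells, was at 12.3, 4.23 and 9.39 CPM in Ebi3 and 50.7, 15.2 and 21.7 CPM in DN libraries. The DN library of batch 1 stood well above the other two, and the groups did not overlap. Tcf7 fell by 1.71 (SE 0.35, adjusted p = 0.0172), with 1 of 3 calls without a batch and 1 of 6 without a library. Rasgrp2, an activator of the integrin switch Rap1, was at 12.5, 18.3 and 5.50 CPM against 35.2, 21.9 and 34.3 CPM and fell by 1.43 (SE 0.32, adjusted p = 0.0324). Its gap between the gates was narrow in batch 2, and it passed in 1 of 3 fits without a batch and 2 of 6 without a library.

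Ly6c1, a surface protein of resting T cells, was at 16.6, 10.16 and 13.7 CPM against 53.1, 21.7 and 22.8 CPM. It fell by 1.19 (SE 0.28, adjusted p = 0.0406), passed in 0 of 3 fits without a batch and 1 of 6 without a library, and shares near-identical sequence with Ly6c2, so its reads are uncertain. Of the members that did not pass, Ets1 had a log2 fold change of -0.32 (SE 0.10), Slamf6 of -0.53 (SE 0.15) and Lef1 of -0.32 (SE 0.13).

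**Figure D2:**
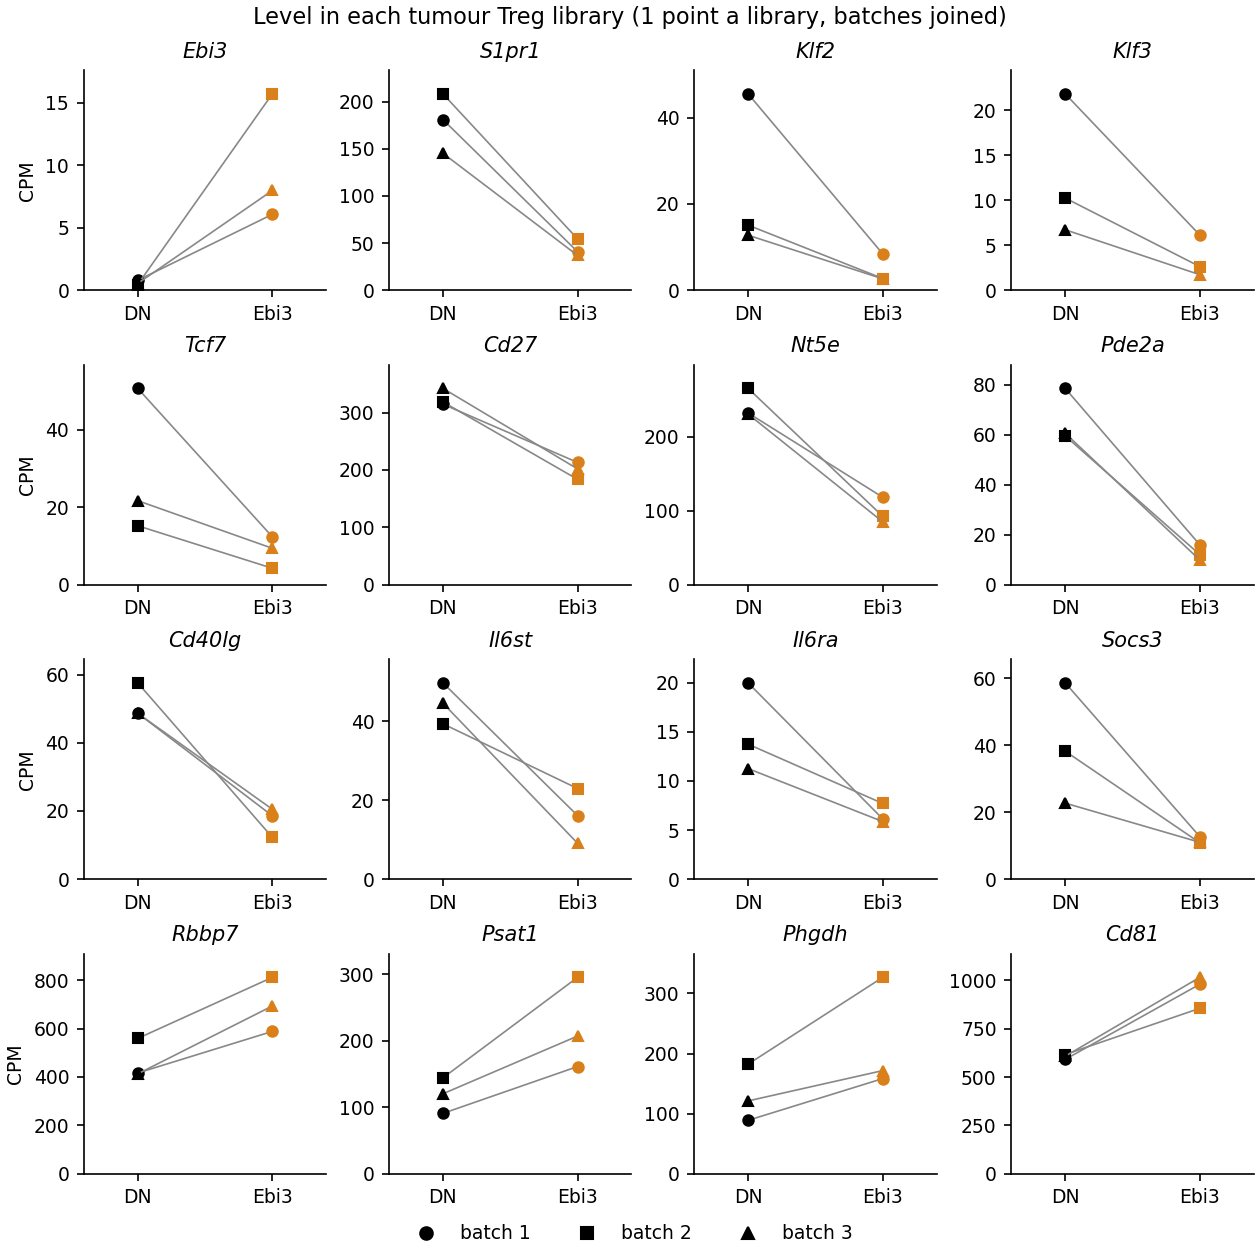
Each panel is a gene and each point a library, with CPM on the y axis, DN on the left, Ebi3 on the right and batches joined by lines. Ebi3 and the 4 genes of the last row lie higher in Ebi3 libraries within every batch, and the 11 others lie lower; only for Phgdh do the ranges of the 2 gates overlap.

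Il6st (chr13:112464070-112506860), the gp130 chain shared by receptors of the IL-6 family and by a receptor of IL-35, was at 16.1, 22.9 and 9.08 CPM in Ebi3 and 49.7, 39.3 and 44.6 CPM in DN libraries. The groups did not overlap. Il6st fell by 1.58 (SE 0.29, adjusted p = 0.00741), with 2 of 3 calls without a batch and 4 of 6 without a library.

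Il6ra, the ligand-binding chain of the IL-6 receptor, was at 6.12, 7.70 and 5.85 CPM against 19.97, 13.7 and 11.2 CPM. It fell by 1.21 (SE 0.24, adjusted p = 0.0134), with 1 of 3 and 3 of 6 such calls. Socs3, the feedback inhibitor that gp130 signalling induces, was at 12.7, 10.9 and 11 CPM in Ebi3 and 58.6, 38.2 and 22.7 CPM in DN libraries. The Ebi3 libraries were close together while the DN libraries spread by batch, and Socs3 fell by 1.77 (SE 0.40, adjusted p = 0.0321), with 0 of 3 and 2 of 6 calls. Stat5b, a signal transducer of IL-2, was at 90.9, 107 and 85.5 CPM against 155, 179 and 137 CPM and fell by 0.75 (SE 0.15, adjusted p = 0.0144), with 0 of 3 and 1 of 6 calls.

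The list of cytokine receptors, JAK-STAT and SOCS genes had 30 members tested, of which Stat5b and Socs3 fell, 0 rose and the median was -0.20. Of all 12907 genes 81 fell. The IL-2 receptor chain genes Il2rg and Il2rb had log2 fold changes of -0.26 (SE 0.10) and -0.00 (SE 0.10), and Ifngr1 of -0.33 (SE 0.12). These 3 did not pass the test.

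Of the adenosine and cyclic nucleotide genes, 2 of 20 tested fell (beside 81 of all 12907), 0 rose and the median was -0.15. Nt5e (chr9:88327609-88372089) encodes CD73, which makes adenosine from AMP. It was at 118, 92.3 and 84.8 CPM in Ebi3 and 232, 265 and 230 CPM in DN libraries. The lowest DN library lay far above the highest Ebi3 library, and Nt5e fell by 1.31 (SE 0.21, adjusted p = 0.00163), a call kept in all 6 fits without a library and in 1 of 3 without a batch, with a highest adjusted p of 0.142.

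Pde2a, a phosphodiesterase that degrades cyclic nucleotides, was at 15.9, 12.0 and 9.84 CPM against 78.5, 59.5 and 60.6 CPM. It fell by 2.43 (SE 0.35, adjusted p = 0.000395; 0.111 without batch 3). Entpd1, or CD39, which acts before CD73, was at 154, 194 and 190 CPM against 135, 181 and 179 CPM and did not pass (0.11, SE 0.16, adjusted p = 0.922). Ada, which removes adenosine, had a log2 fold change of 0.81 (SE 0.32, adjusted p = 0.382), and was named after its value was seen. The regulatory subunit gene Prkar1a had one of -0.00 (SE 0.07) and Crem, a cyclic AMP response factor, of -0.62 (SE 0.18, adjusted p = 0.139).

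Among TNF family genes, Cd40lg (chrX:57212143-57224042), the CD40 ligand of helper T cells, was at 18.6, 12.2 and 20.5 CPM in Ebi3 and 48.7, 57.6 and 48.7 CPM in DN libraries. The groups lay far apart in each batch. It fell by 1.61 (SE 0.23, adjusted p = 0.000414), and its highest adjusted p over the alternatives was 0.0419. Tnfrsf26, a TNF receptor family gene, was at 19.1, 20.2 and 20.6 CPM against 59.1, 35.7 and 40.5 CPM and fell by 1.16 (SE 0.22, adjusted p = 0.00875), with 1 of 3 calls without a batch and 3 of 6 without a library. These were the 2 of 17 tested members that fell (beside 81 of all 12907 genes), with 0 that rose and a median of -0.38. Ltb had a log2 fold change of -0.33 (SE 0.12), Tnfsf10 of 0.11 (SE 0.23) and Fas of -0.22 (SE 0.18), which did not pass.

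Of 27 T cell receptor signalling genes tested, 2 fell and 0 rose, with a median of -0.19, while 81 of all 12907 genes fell. In that list 25 had a negative log2 fold change and 14 were lower in all 3 batches, beside 6506 and 2159 of all genes. Prkcq, the protein kinase C theta of the immune synapse, was at 91.0, 146 and 102 CPM in Ebi3 and 204, 243 and 134 CPM in DN libraries. The ranges overlapped across batches, and within each batch the Ebi3 library was lower. Prkcq fell by 0.79 (SE 0.12, adjusted p = 0.00109; 0.511 without the block and 0.13 without batch 1). Cd7, a surface receptor of T and NK cells, was at 5.79, 1.31 and 5.30 CPM against 17.9, 16.3 and 14.2 CPM and fell by 2.00 (SE 0.30, adjusted p = 0.0008), with 2 of 3 calls without a batch and 6 of 6 without a library. The CD3 chain genes Cd3g and Cd3e and the kinase gene Lck had log2 fold changes of -0.14 (SE 0.09), -0.25 (SE 0.07) and -0.04 (SE 0.07) and did not pass.

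Of 24 immediate early genes, Btg2 and Zfp36 fell (beside 81 of all 12907 genes), 0 rose, and the median was -0.46. Btg2, an antiproliferative gene, was at 137, 128 and 107 CPM against 266, 214 and 147 CPM (-0.76, SE 0.15, adjusted p = 0.00947), with 1 of 3 calls without a batch and 4 of 6 without a library. Zfp36, which encodes the RNA-decay factor tristetraprolin, was at 441, 309 and 290 CPM against 853, 458 and 340 CPM, with overlapping ranges (-0.64, SE 0.15, adjusted p = 0.0441), and 0 of 3 and 1 of 6 calls. Both were highest in the DN library of batch 1, and without it neither passed. With the 6 libraries alone 8 of the list fell, and with the 9 tumour libraries 6. More of all genes fell in those fits too, as given above. Dusp1, Junb and Fos, which respond to cell handling as well as to signals, had log2 fold changes of -0.05 (SE 0.43), -0.14 (SE 0.28) and -1.001 (SE 0.83). None of 16 NF-kB pathway genes passed edgeR's test, 4 had an unadjusted p under 0.05, and their median was -0.26.

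Of the lineage factor genes, Runx3 and Tox fell among 17 tested (beside 81 of all 12907 genes), with 0 that rose and a median of -0.11. Runx3, a factor of CD8 and cytotoxic T cells, was at 37.1, 37.2 and 38.4 CPM in Ebi3 and 69.2, 66.9 and 61.6 CPM in DN libraries. Both groups were tight; it fell by 0.83 (SE 0.20, adjusted p = 0.0441), and passed in 0 of 9 leave-outs. Tox, a factor of chronically stimulated T cells, was at 118, 131 and 156 CPM against 167, 208 and 212 CPM and fell by 0.56 (SE 0.12, adjusted p = 0.0208), also with 0 of 9. The groups of Tox did not overlap, with the highest Ebi3 library close below the lowest DN library.

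Other genes of small p that fell had no list. Gramd3, which encodes a GRAM domain protein, was at 62.2, 45.7 and 55.3 CPM against 185, 150 and 152 CPM (-1.59, SE 0.20, adjusted p = 0.000183). Trib2, a pseudokinase gene, was at 15.1, 17.0 and 8.78 CPM against 42.4, 38.1 and 26.8 CPM (-1.43, SE 0.19, adjusted p = 0.000317). For both, all 3 Ebi3 libraries lay below all 3 DN libraries. Evl, which encodes an actin regulator, was at 6.61, 4.39 and 8.02 CPM against 22.9, 16.3 and 18.5 CPM (-1.60, SE 0.22, adjusted p = 0.000395; 0.0665 without batch 1). Degs2 on the opposite strand overlaps its exons and fell too (-1.85, SE 0.28, adjusted p = 0.000682; 1 of 3 and 6 of 6 calls), and with no strand setting given the reads of the pair cannot be told apart.

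Fam65b, which restrains the GTPase RhoA, fell by 1.19 (SE 0.18, adjusted p = 0.000945; 0.111 without batch 3). The diacylglycerol kinase gene Dgka fell by 0.56 (SE 0.09, adjusted p = 0.00178) and the nuclear RNA Malat1 by 0.74 (SE 0.12, adjusted p = 0.00178); both had ranges that overlapped across batches and were lower in Ebi3 within each, and each passed in 1 of 3 fits without a batch and 6 of 6 without a library. Tmem71 fell by 0.89 (SE 0.15), the p38 kinase gene Mapk11 fell by 1.403 (SE 0.25), the nuclear factor gene Aff3 by 2.49 (SE 0.45) and the lysophosphatidic acid receptor gene Lpar6 by 0.68 (SE 0.12). Those 4 had adjusted p of 0.00311, 0.00466, 0.00617 and 0.00617, and passed in 4, 4, 4 and 5 of the 6 fits without a library.

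**Figure D3:**
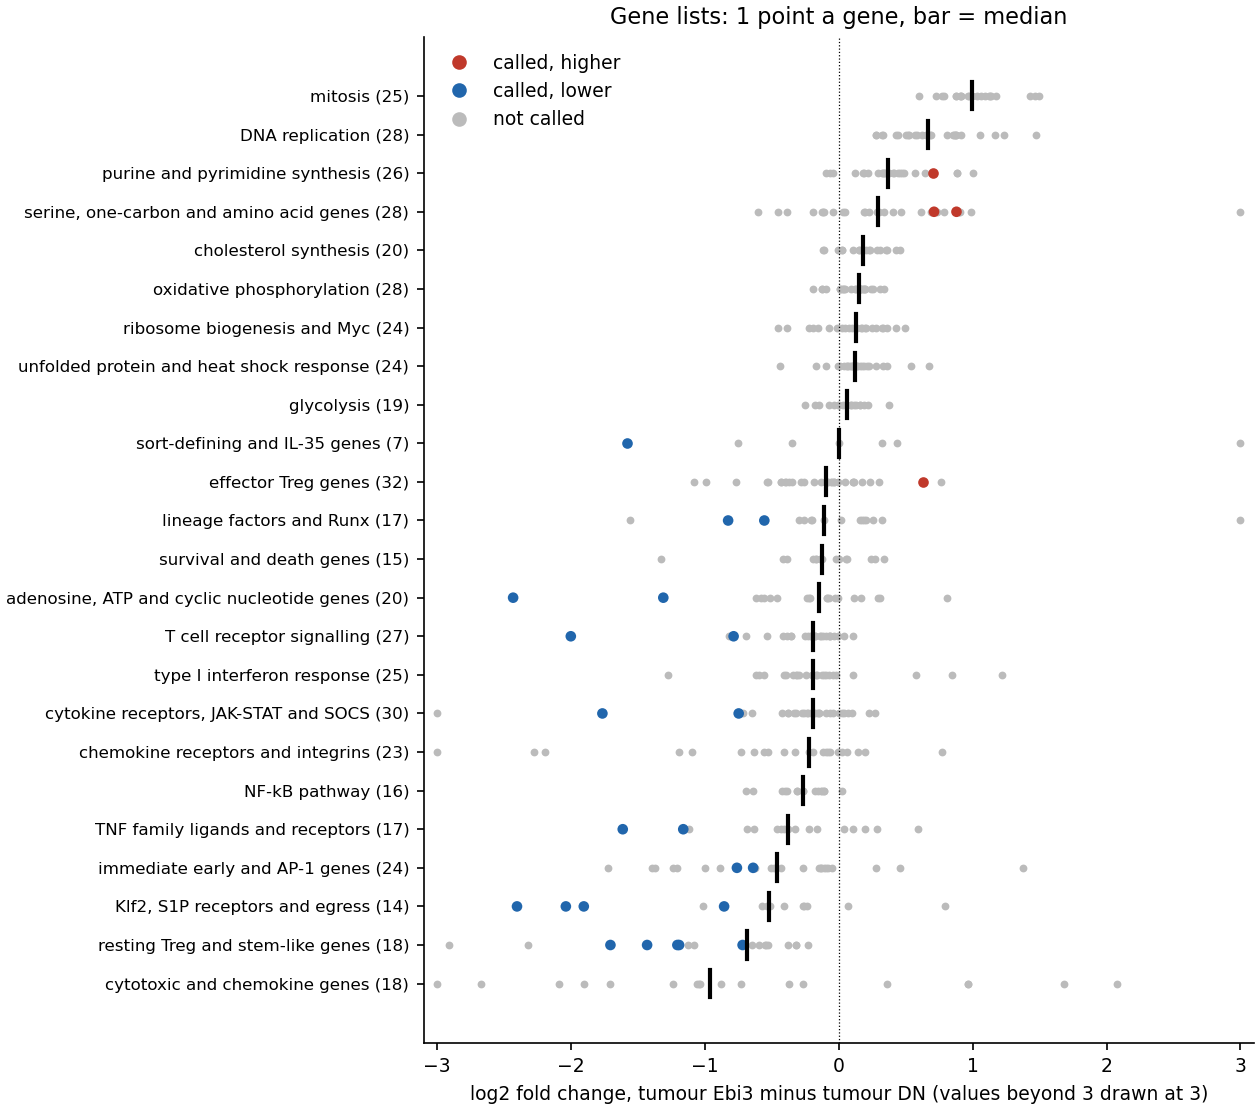
Each row is 1 of 24 gene lists with the number of genes tested in brackets, each point is a gene at its log2 fold change of tumour Ebi3 minus tumour DN Tregs, and bars are medians. Blue points (genes that fell) sit in the egress, resting, TNF, cytokine receptor, T cell receptor, adenosine and lineage rows among others, red points (genes that rose) in the serine, purine and effector rows, and all points of the replication and mitosis rows are to the right of 0 and grey.

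The 11 genes that rose were led by Rbbp7 (chrX:162760372-162779090), a histone-binding subunit of chromatin complexes. It was at 588, 812 and 693 CPM in Ebi3 and 416, 559 and 413 CPM in DN libraries. The lowest Ebi3 library was just above the highest DN library, and in each batch Ebi3 was higher. Rbbp7 rose by 0.58 (SE 0.12, adjusted p = 0.0144), with 1 of 3 calls without a batch and 2 of 6 without a library.

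Psat1 (chr19:15905123-15925059) and Phgdh (chr3:98313171-98339969) encode consecutive enzymes of serine synthesis. Psat1 was at 161, 295 and 207 CPM in Ebi3 and 90.6, 144 and 120 CPM in DN libraries, without overlap. It rose by 0.88 (SE 0.18, adjusted p = 0.0165). Phgdh was at 158, 327 and 172 CPM against 88.8, 182 and 121 CPM, higher in Ebi3 in each batch while the ranges overlapped, and rose by 0.71 (SE 0.16, adjusted p = 0.0302). Each was called in 0 of 3 fits without a batch and 2 of 6 without a library. Of 28 tested genes of serine, one-carbon and amino acid metabolism, these 2 rose (beside 11 of all 12907 genes), 0 fell, and the median was 0.29. With 6 or 9 libraries 6 rose, and more of all genes rose in those fits too, as given above. Slc3a2, Slc1a5 and Got1 had log2 fold changes of -0.19 (SE 0.11), -0.12 (SE 0.14) and -0.45 (SE 0.18) and did not pass.

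Impdh2, the rate-limiting enzyme of guanine nucleotide synthesis, was at 122, 214 and 121 CPM in Ebi3 and 88.6, 113 and 71.6 CPM in DN libraries. The groups did not overlap by a narrow margin. It rose by 0.71 (SE 0.15, adjusted p = 0.0172), with 0 of 3 calls without a batch and 1 of 6 without a library, and was the 1 gene of 26 in purine and pyrimidine synthesis that passed. In that list 23 had a positive log2 fold change and 19 were higher in all 3 batches, beside 6401 and 2327 of all 12907 genes. The median was 0.37. With the 6 libraries 8 of the list rose and with the 9 tumour libraries 7, where more of all genes rose too. Hprt had 0.19 (SE 0.12), Nme1 0.29 (SE 0.16) and the ribonucleotide reductase gene Rrm1 0.88 (SE 0.22, adjusted p = 0.065), which did not pass.

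Cd81, a tetraspanin that partners with surface receptors, was at 980, 855 and 1016 CPM in Ebi3 and 591, 616 and 607 CPM in DN libraries. The groups were far apart, it rose by 0.63 (SE 0.14, adjusted p = 0.0324), and it passed in 0 of 3 and 1 of 6 leave-outs. Bckdhb, of branched-chain amino acid breakdown, was at 12.2, 8.16 and 7.27 CPM against 1.85, 3.04 and 3.46 CPM (1.72, SE 0.39, adjusted p = 0.0324). Rnaseh2a, of RNA-DNA hybrid removal, was at 60.5, 70.7 and 67.1 CPM against 33.8, 44.6 and 38.9 CPM (0.75, SE 0.17, adjusted p = 0.0332). Zfp101, a zinc finger gene, rose by 1.74 (SE 0.41, adjusted p = 0.0441). Tmc3 rose by 3.53 (SE 0.81, adjusted p = 0.0349) from levels of at most 2.38 CPM.

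The last 2 of the 11 had the smallest changes. The mitochondrial carrier gene Ucp2 rose by 0.35 (SE 0.09) and the ribosomal protein gene Rpl3 by 0.26 (SE 0.06), each at an adjusted p of 0.0499. Rpl3 has pseudogene copies that could take its reads. Both had ranges that overlapped between the gates. Of the 5 genes Bckdhb, Rnaseh2a, Zfp101, Tmc3 and Ucp2, none passed in a fit without a batch, and neither did Rpl3; without a library they passed in 0, 2, 1, 1, 0 and 1 of 6 fits.

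Cell-cycle genes had positive log2 fold changes and none passed the test. All 28 DNA replication genes had a positive log2 fold change, with a median of 0.66, and 27 were higher in all 3 batches. All 25 mitosis genes did too, with a median of 0.99, and 24 were higher in all 3 batches. Of all 12907 genes, 6401 had a positive log2 fold change and 2327 were higher in all 3 batches. Of both lists 0 genes passed in edgeR's fit of 30 libraries; at an unadjusted p under 0.05, 10 replication and 5 mitosis genes passed, DESeq2 called 1 in each and limma 0. The smallest adjusted p was 0.14 for Mcm6 of the replicative helicase (0.51, SE 0.15) and 0.137 for the mitotic kinesin gene Kif20a (1.00, SE 0.29).

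The summed level of the 25 mitosis genes was 2745, 6244 and 3987 CPM in Ebi3 and 1952, 2782 and 1821 CPM in DN libraries. The Ebi3 library of batch 1 was below the DN library of batch 2, so the groups overlapped, and the Ebi3 library of batch 2 stood highest. The 28 replication genes summed to 3131, 4130 and 3870 CPM against 1859, 2999 and 2631 CPM, without overlap. In tumour IL10 libraries the sums were 1213, 2538 and 2494 CPM for mitosis and 1848, 3065 and 2318 CPM for replication. Mki67, the usual proliferation marker, was at 200, 479 and 305 CPM in Ebi3 against 164, 221 and 166 CPM in DN libraries (0.77, SE 0.61, adjusted p = 0.774).

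The count of cell-cycle calls differed with the libraries fitted, and so did the count of all genes that rose, as given above. Fitted on the 6 libraries alone, 20 mitosis and 11 replication genes passed, all higher in Ebi3. On the 9 tumour libraries the counts were 12 and 11. The medians hardly moved, at 0.99 and 0.68 with 6 libraries and 0.98 and 0.69 with 9. Without the Ebi3 library of batch 2 the mitosis median was 0.76, without that of batch 1 it was 1.23, and no mitosis gene passed in any leave-out.

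**Figure D4:**
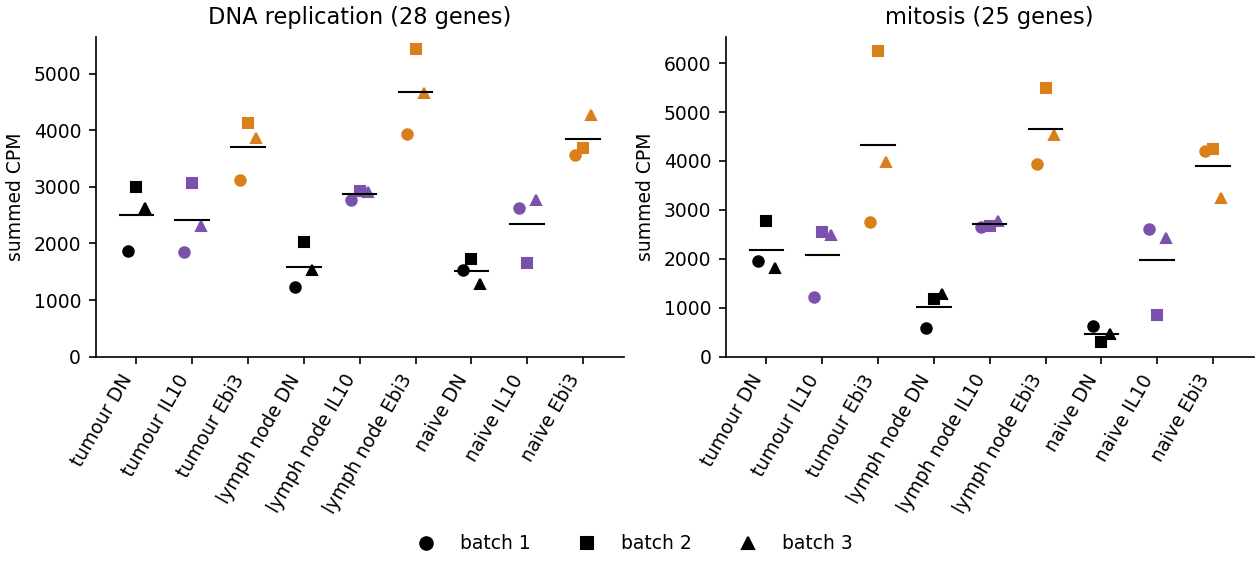
Summed CPM of 28 DNA replication genes (left) and 25 mitosis genes (right) on the y axis, for 9 Treg groups on the x axis; each point is a library, its shape the batch, and each bar the mean of 3. Tumour Ebi3 libraries have mitosis sums of 2745 to 6244 CPM against 1821 to 2782 CPM in tumour DN, while node and naive DN libraries reach at most 1286 CPM.

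Of 32 effector Treg genes tested, Cd81 rose, 0 fell and the median was -0.10, with 9 above and 23 below 0. Of all 12907 genes 11 rose and 81 fell, with 6401 above and 6506 below 0. The costimulatory receptor gene Tnfrsf4 was at 2689, 2139 and 2391 CPM in Ebi3 and 2723, 2089 and 3090 CPM in DN libraries. Tnfrsf4 had a log2 fold change of -0.13 (SE 0.16), Tnfrsf18 had one of -0.06 (SE 0.10), Tnfrsf9 of -0.40 (SE 0.23) and Ctla4, the inhibitory receptor, of -0.05 (SE 0.17). Icos was at 1514, 1658 and 1468 CPM against 1493, 1650 and 1579 CPM (-0.04, SE 0.14, adjusted p = 0.988). The intervals of 2 SE around these differences include 0. Over the list the log2 fold changes ran from -1.08 for Lag3 to 0.766 for Klrg1. At an unadjusted p under 0.05, 1 gene was higher and 4 were lower (15.6%), beside 9.61% of all genes. With the 6 libraries alone 2 of the list rose and 2 fell, and with the 9 tumour libraries 2 and 2.

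The other lists with 0 calls in either direction in edgeR's fit of 30 libraries had these medians: chemokine receptors and integrins -0.22 over 23 genes, type I interferon response -0.19 over 25, survival genes -0.13 over 15, glycolysis 0.06 over 19, oxidative phosphorylation 0.15 over 28, cholesterol synthesis 0.18 over 20, the unfolded protein response 0.12 over 24, and ribosome biogenesis 0.13 over 24. With the 6 libraries alone, 2 chemokine receptor and integrin, 2 interferon and 1 survival genes fell. In that fit 1 oxidative phosphorylation, 1 unfolded protein and 2 ribosome biogenesis genes rose. With the 9 tumour libraries 2, 1 and 1 genes of the first 3 lists fell, and 2 of oxidative phosphorylation rose. Glycolysis and cholesterol synthesis had 0 calls in both fits. At an unadjusted p under 0.05 these lists held, in the order of their medians above, 4, 5, 2, 0, 3, 0, 2 and 2 genes. Of all 12907 genes, 1241 (9.61%) had such a p, so several of these counts lie near that share. The 18 cytotoxic and chemokine genes had a median of -0.96 and 2 such genes (11.1%). With the 6 libraries alone 6 of 14 tested fell, and with the 9 tumour libraries 5 of 17. More of all genes fell in those fits too, as given above. Nkg7, Ccl5 and Ccl4 of that list had log2 fold changes of -0.88 (SE 0.44), -0.73 (SE 0.47) and -1.04 (SE 0.82), none past the threshold. Cd8a was higher in all 3 DN libraries and the NK gene sum in that of batch 3, as given above, and their part in this was not tested.

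The same contrast was measured in lymph node and naive Tregs, which share no library with the tumour contrast. Ebi3 against DN Tregs differed at 1681 genes (13.0%) in lymph nodes, 898 higher and 783 lower, and at 1658 genes (12.8%) in the naive source, 955 higher and 703 lower. Of the 92 tumour calls, 44 were called in the same direction in lymph nodes, 47.8% of the tumour calls and 2.62% of the node calls, and 3 in the opposite one. In the naive source 47 were called in the same direction, 51.1% of the tumour calls and 2.83% of the naive calls, and 7 in the opposite one. The same direction was called at all 3 sites for 42 genes, 4 that rose and 38 that fell.

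Over 9297 genes with a mean of at least 5 CPM, 282 (3.03%) had a log2 fold change larger than 1 in either direction in tumours, 1075 (11.6%) in lymph nodes and 1130 (12.2%) in the naive source. The median size of the log2 fold change was 0.20, 0.32 and 0.31. The tumour and node log2 fold changes correlated across these genes with Pearson's r of 0.37 and Spearman's rho of 0.38, and the tumour and naive ones with 0.31 and 0.29. Genes are not independent replicates, and the batches were shared, so these are descriptions.

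S1pr1 fell at all 3 sites, by 1.62 in lymph nodes and 1.82 in the naive source on the log2 scale (SE 0.18 each), though its level differed: 312 ± 75.5 CPM (SD, n = 3) in node Ebi3 and 919 ± 133 CPM in node DN libraries, against 44.0 ± 9.21 and 178 ± 31.6 CPM in tumours. Cd27 fell by 0.76 and 0.50, Trib2 by 1.51 and 1.80, Klf2 by 1.5 and 1.84 and Socs3 by 1.78 and 1.79. Rbbp7 rose by 0.91 and 0.88, Psat1 by 1.17 and 0.79 and Cd81 by 0.50 and 0.62. None of these 8 genes passed the test of the difference between tumour and either other site (interaction, edgeR), in which the smallest adjusted p among them was 0.396 for Rbbp7.

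That test, which uses the same tumour libraries, called 208 genes (1.61%) for tumour minus lymph node and 360 genes (2.79%) for tumour minus naive. The Ebi3 minus DN log2 fold change was higher in tumour for 83 and lower for 125 against lymph node. Against the naive source it was higher for 107 and lower for 253. Nt5e was lower in tumour Ebi3 than DN libraries and higher in the other 2 sites: 403, 336 and 442 CPM in node Ebi3 against 272, 272 and 252 CPM in node DN, and 328, 485 and 430 CPM in naive Ebi3 against 191, 257 and 232 CPM in naive DN. The log2 fold change was -1.31 in tumour, 0.52 in node (adjusted p = 0.102) and 0.79 in naive Tregs. The difference was -1.83 (SE 0.29, adjusted p = 0.000832) from node and -2.10 (SE 0.30, adjusted p = 0.000138) from naive.

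Cd40lg was at 73.3, 69.3 and 75.2 CPM in node Ebi3 and 56.6, 41.7 and 53.5 CPM in node DN libraries, so its tumour decrease of 1.61 stood against 0.47 in nodes and 0.18 in the naive source. The differences were -2.08 (SE 0.32, adjusted p = 0.000557) and -1.79 (SE 0.32, adjusted p = 0.00159). Runx3 and Tox were lower in tumour Ebi3 libraries and had log2 fold changes of 0.54 and 0.49 in nodes and 0.77 and 0.59 in the naive source. Their differences from node were -1.36 (SE 0.28) and -1.04 (SE 0.17), at adjusted p of 0.00847 and 0.000832.

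Icos and Itgae, a pair of effector Treg genes, showed the other pattern. Icos was at 1899, 2092 and 1906 CPM in node Ebi3 and 371, 539 and 753 CPM in node DN libraries, while both tumour gates lay between 1468 and 1658 CPM. Its log2 fold change was 1.80 in nodes and 2.22 in the naive source, and the tumour difference from them was -1.84 (SE 0.20, adjusted p = 6.54e-06) and -2.26 (SE 0.20, adjusted p = 2.94e-07). Itgae, the CD103 integrin of tissue retention, was at 206, 317 and 190 against 23.8, 70.9 and 35.5 CPM in nodes and at 62.8, 81.6 and 62.0 against 68.2, 126 and 83.8 CPM in tumours. The difference was -2.88 (SE 0.29, adjusted p = 1.41e-06).

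Ly6c1 fell at all 3 sites and by less in tumours: node DN libraries held 368, 327 and 232 CPM, node Ebi3 libraries 16.3, 4.58 and 4.25 CPM. The difference was 4.18 (SE 0.41, adjusted p = 1.41e-06). Ramp1, a co-receptor of neuropeptide signalling, was lower in node and naive Ebi3 cells (-1.56 and -1.22) and not in tumours (0.25, adjusted p = 0.634), a difference of 1.81 (SE 0.22, adjusted p = 2.17e-05).

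By list, effector Treg genes rose in 17 of 32 cases and fell in 1 in lymph nodes (median 0.82), and rose in 20 and fell in 1 in the naive source (median 1.07), beside 1 and 0 in tumours. The test of the difference called the log2 fold change of 10 of them lower in tumour than in node, of 14 lower than in naive, and of 0 higher. Over all 12907 genes that test called 125 lower and 83 higher against node, and 253 lower and 107 higher against naive. Of mitosis genes 18 of 25 rose in nodes (median 2.23) and 24 in the naive source (median 3.05), and of replication genes 24 of 28 at each of both sites (medians 1.83 and 1.5). The test of the difference called 0 mitosis genes at either site, with median differences of -1.29 and -1.99. Of replication genes it called 1 (Mcm4) and 2 (Ccne2 and Chaf1a), all with a lower log2 fold change in tumour. Egress genes fell in 8 of 14 cases at each other site and resting genes in 13 of 18, with 0 and 1 that rose. Over all 12907 genes, 898 rose and 783 fell in nodes, and 955 rose and 703 fell in the naive source.

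**Figure D5:**
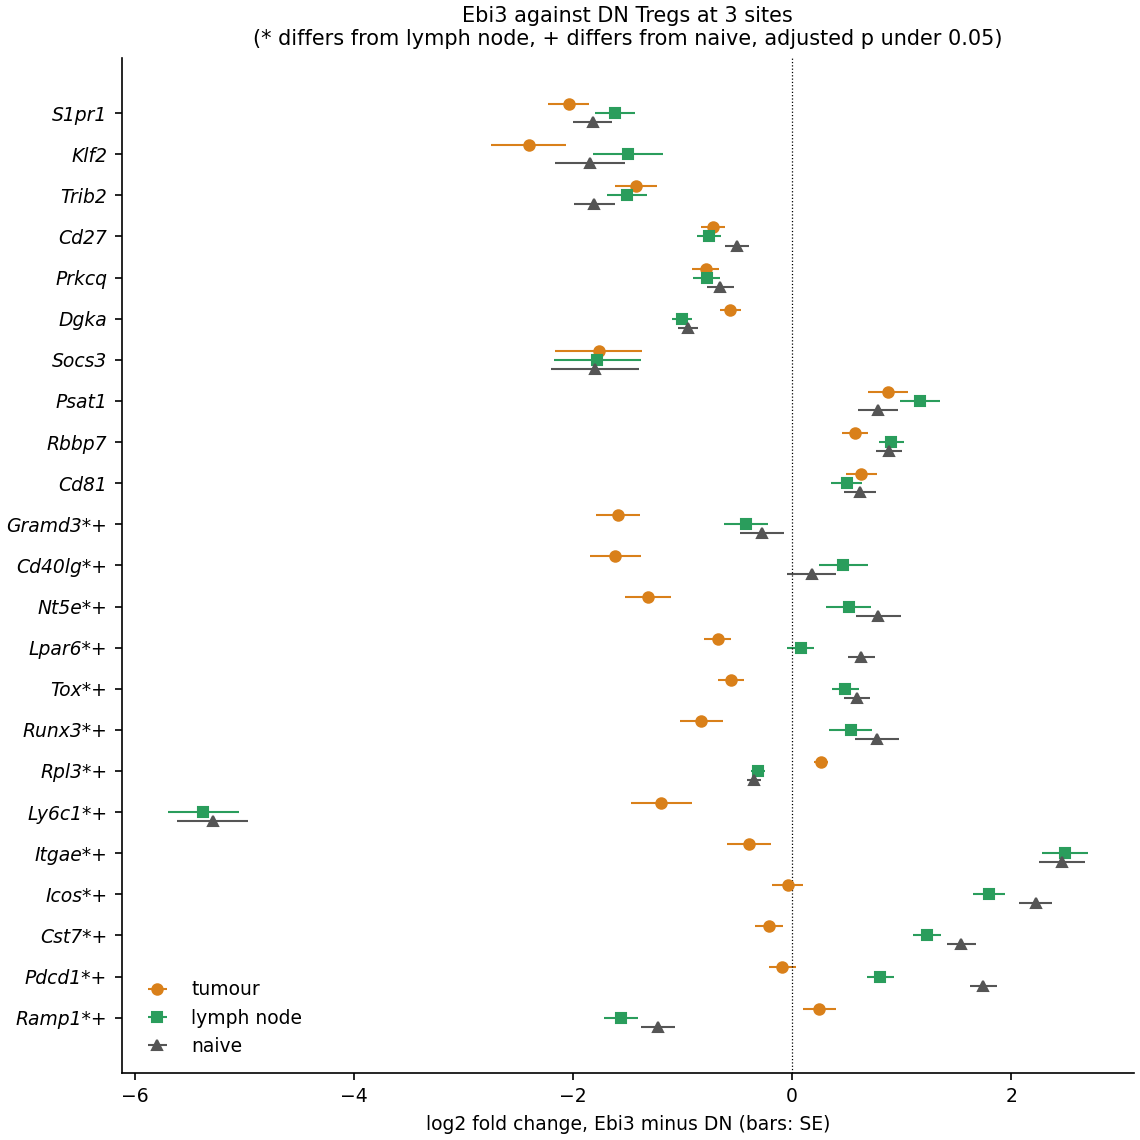
Log2 fold change of Ebi3 minus DN Tregs (x axis) with its SE in tumour (circles), lymph node (squares) and the naive source (triangles) for 23 named genes. The first 10, from S1pr1 to Cd81, have the same sign at the 3 sites, while Nt5e at -1.31, 0.52 and 0.79 and Icos at -0.04, 1.80 and 2.22 lie apart; a star marks a difference from lymph node and a plus one from naive at an adjusted p under 0.05.

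Tumour Ebi3 Tregs were also set against tumour IL10 Tregs, with which they share the tumour but not the sort. Tumour IL10 against tumour DN called 108 genes (0.837%), and tumour Ebi3 against tumour IL10 called 366 (2.84%), 138 higher and 228 lower in Ebi3. These comparisons share libraries with tumour Ebi3 against tumour DN, so values are given side by side only. Il10 itself, the gene of the other sort, had a log2 difference of -6.72 (SE 0.61, adjusted p = 4.26e-07).

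S1pr1 was at 37.9, 42.9 and 53.8 CPM in tumour IL10 libraries, and its difference from Ebi3 libraries did not pass (-0.12, SE 0.18, adjusted p = 0.835). Cd40lg was at 6.80, 13.9 and 13.4 CPM there (0.54, SE 0.23, adjusted p = 0.266). Cd27 was at 423, 458 and 434 CPM in IL10 libraries, above both other gates, and lower in Ebi3 (-1.20, SE 0.11, adjusted p = 4.26e-07). Trib2 was at 39.9, 37.8 and 33.4 CPM in IL10 libraries, within the DN range, and lower in Ebi3 (-1.54, SE 0.19, adjusted p = 5.81e-05). Nt5e was at 295, 253 and 177 CPM, and lower in Ebi3 (-1.37, SE 0.21, adjusted p = 0.000616).

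Peli1, a ubiquitin ligase gene, was at 476, 409 and 562 CPM in IL10 against 305, 226 and 269 CPM in Ebi3 libraries (-0.92, SE 0.11, adjusted p = 3.33e-05), with DN libraries in between at 391, 337 and 394 CPM. Malat1 was lower in Ebi3 (-0.89, SE 0.12, adjusted p = 0.000195). P2rx7, the receptor gene for extracellular ATP, was at 35.3, 32.7 and 52.3 CPM in Ebi3, 39.3, 45.5 and 43.5 CPM in DN and 8.296, 5.59 and 3.82 CPM in IL10 libraries. It was 2.74 higher in Ebi3 than in IL10 (SE 0.36, adjusted p = 0.000104), while Ebi3 against DN gave -0.07 (SE 0.33). Of 32 effector genes, 10 were lower in Ebi3 than in IL10 cells (beside 228 of all 12907 genes), Cd81 was higher, and the median was -0.57. The 10 included Icos, Itgae and Ctla4.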

How the data were processed

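The 6 libraries compared, and 24 others fitted with them, are Treg-series RNA-seq libraries of sorted mouse T cells, naive effector T cells among them. Per the submitters' processing notes the authors used STAR, featureCounts of Subread, limma and build mm10; versions, gene annotation and strandedness: not given in the sources used here. The authors deposited raw read counts per gene (23420 genes, 90 columns) and log2 expression values for 9885 genes, which equal log2 of (count + 0.5) scaled by the library total plus a constant per gene and batch (median SD within batches 0.000508 to 0.000546).

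CPM here is the count over the library total, times 1000000. The test was edgeR 4.0.16 (R 4.3.3; TMM, filterByExpr, robust quasi-likelihood, 12907 genes), fitted on 30 libraries in 10 groups with batch as a block, and Benjamini-Hochberg adjustment at 0.05. The labels state that the number is a batch; libraries of the same batch deviated together (correlations 0.18 to 0.44 over 3 pairs, against -0.29 to 0.073 over 6 pairs of different batches). No 2 libraries of a group agreed within sampling noise (chi-square per gene 35.8 to 110). On simulated counts of a single run for tumour Ebi3 against DN, 62% of 100 2-fold and 87% of 100 4-fold changes were recovered, with 3.87% of calls false (12401 genes). The changed genes were drawn from those with a mean of at least 5 CPM, and no Ebi3 against DN difference was set at the other sites. These values therefore do not cover genes of lower level.

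Alternatives were DESeq2 1.42.0, limma 3.58.1 on the deposited log2 values, other scaling, no filter, no block, 6 or 9 libraries, and each batch or library left out. Named genes were the sort genes, all that rose, the 20 of smallest p that fell, listed genes that passed with up to 3 others of highest CPM, and 6 per other test. Members and the 24 lists were chosen with earlier results of these data known. Positions and promoters are from RefSeq GRCm38.p6; 20 of 56 named genes share exon sequence with another gene. The CD8 T cell libraries were not analysed here. A few results are not reported here.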

Additional observations from a re-analysis of the deposited data

Results flagged for a closer look

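The genes below were called in the test of whether the Ebi3 against DN difference differed between sites (edgeR interaction, tumour minus the other site, log2 scale). Against lymph node, Il10 differed by -5.27 (SE 1.09), with node Ebi3 libraries at 5.14, 0 and 1.93 CPM. As these levels reached 0, the size of the Il10 difference is uncertain. In the same test Cd40lg differed by -2.08, Nt5e by -1.83, Aff3 by -2.90, Gramd3 by -1.17, Lpar6 by -0.759, Tox by -1.04, Runx3 by -1.36 and Rpl3 by 0.574. The others were Ly6c1 at 4.18, Itgae at -2.88, Icos at -1.84, Ramp1 at 1.81, Cst7 at -1.44 and Pdcd1 at -0.892. The processed pseudogene listed as Cldn25 differed by -2.07, with log2 fold changes of -0.76 in tumours, 1.31 in nodes and 1.22 in the naive source, each past the threshold. Against the naive source the values were -1.79 for Cd40lg, -2.10 for Nt5e, -2.32 for Aff3, -1.32 for Gramd3, -1.31 for Lpar6, -1.15 for Tox, -1.60 for Runx3, 0.61 for Rpl3, -1.64 for Cd7, 0.767 for Impdh2 and 2.00 for Bckdhb. For the others they were 4.10 for Ly6c1, -2.86 for Itgae, -2.26 for Icos, 1.47 for Ramp1, -1.75 for Cst7, -1.83 for Pdcd1 and -1.98 for Cldn25.

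In tumours Pdcd1, the gene of the inhibitory receptor PD-1, was at 652, 680 and 636 CPM in Ebi3 and 662, 729 and 679 CPM in DN libraries, and in the naive source at 251, 381 and 347 against 75.2, 93.8 and 105 CPM. Cst7, a protease inhibitor gene, was at 269, 210 and 236 against 256, 243 and 322 CPM in tumours and at 224, 260 and 239 against 100, 89.7 and 108 CPM in nodes. For both genes the ranges of the gates overlapped in tumours and did not at the other site. Lpar6 was at 51.7, 45.4 and 56.3 against 77.9, 82.4 and 82.4 CPM in tumours and at 180, 187 and 189 against 110, 95.1 and 136 CPM in the naive source. With groups of 3, a single library far from its group was not tested for.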

How the results depend on the processing

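Tumour Ebi3 against tumour DN called 92 genes (12.0% of them higher). DESeq2 called 191 (49 rose, 142 fell, 25.7% higher), the 6 libraries alone 325 (165 rose, 160 fell, 50.8% higher), the 9 tumour libraries 267 (137 rose, 130 fell, 51.3% higher), and limma 94 (17 rose). Of the 92, 92, 74, 69 and 84 passed there. Without a batch 10 to 28 genes were called, 0 to 3 of them higher and 10 to 25 lower. Without a single library 18 to 64 were called, 0 to 11 higher and 18 to 53 lower. The cause was not tested. Without the batch as a replicate block, 16 genes were called, 0 higher and 16 lower, all among the 92.

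For the other tests the block mattered too: without it tumour Ebi3 against IL10 called 51 genes instead of 366 (47.1% higher against 37.7%), the lymph node difference 40 instead of 208 (25% higher) and the naive difference 104 instead of 360 (14.4% higher). DESeq2 called 658 (48.9% higher), 425 and 665, and limma gave 503, 189 and 379, with 64.2% higher for IL10. Leaving out a batch gave 32 to 121, 52 to 102 and 106 to 180.

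The 16 alternatives were read for 47 named genes: the tested sort genes and those named from the calls of tumour Ebi3 against DN. Of these values, 481 kept direction and side of the threshold and 270 kept direction and did not pass. In 1 case a gene passed only there (Ebi3, 3.93 with 6 libraries), and 0 reversed. Nearly all of these genes were named because they passed, so hardly any could pass only in an alternative. The counts do not describe genes outside this set. Differences of genes near 3 counts, 0.151 to 0.231 CPM, are not detectable at this depth.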
